A study of Homo sapiens with 12 samples.

Results

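The genes described here are 42 genes of mitosis, the stage of the cell cycle in which the copied chromosomes are condensed, attached to the spindle and pulled apart into daughter cells. They were picked by gene symbol from the 19775 genes that had probe sets with a single symbol on an Affymetrix array, a chip on which a probe set (a group of short probes) reports the transcript of a gene by its fluorescence. Each gene was represented by the probe set whose mean signal over the 12 arrays of the series was highest, a rule that used no difference between groups. The 42 genes had 87 probe sets. All 42 representatives passed the filter on dim signals, as did those of 13067 genes in all.

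RNA came from stably transfected HEK cells (an established line from human embryonic kidney), grown with 5 ug/mL blasticidin. Each line carried a TRPM7 transgene under tetracycline control. TRPM7 joins an ion channel to a kinase in a single membrane protein. The WT line carried the wild-type channel, and the mutant line carried TRPM7DKD, in which the whole C-terminal kinase domain was removed and which the series design calls nonfunctional, as a control for the inducer. Both lines were measured untreated and after 72 hours with tetracycline (1 ug, with no volume given), which made 4 groups of 3 arrays. The labels do not say whether a line was a single clone. Nor do they say that replicate arrays stand for separate cultures, and the p-values then reflect only how these samples varied, which may be technical.

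The deposited values were MAS5 signals with a common trimmed mean across arrays, and levels here are log2 signals. Changes are differences of log2 signals with the standard error (SE) of a limma fit over all 12 arrays. A gene was called when its Benjamini-Hochberg adjusted p, over 29553 tested probe sets, was under 0.05. TRPM7 did not serve as a check of the labels: in the WT line its representative was at 8.47 ± 0.306 (SD, n = 3) before and 7.62 ± 0.672 after tetracycline (limma adjusted p = 0.0643). Groups are therefore named as labelled. The median SD between the arrays of a group, over the tested probe sets, was 0.299 untreated and 0.326 treated in the WT line, and 0.174 and 0.19 in the mutant line. The fit used 1 spread per probe set for all groups, so SEs of WT changes come out too small and those of mutant changes too large, on the whole. The beta-actin control, whose 3′ over 5′ signal is a sign of RNA quality, had a log2 ratio of 1.05 ± 0.265 (SD, n = 6) in the WT line against 0.259 ± 0.0262 in the mutant line. By a 2-sided exact permutation test this gave p = 0.00216, which is the lowest this design allows, and between treatments the exact p was 0.6 for WT and 0.5 for mutant arrays. With 3 against 3 arrays this exact test cannot give a p under 0.05, so it could not have shown a difference between treatments. The same ratio for GAPDH was 0.0831 ± 0.063 (SD, n = 6) for WT and 0.0745 ± 0.0365 for mutant arrays (exact permutation p = 0.779). Of 9 markers of HEK cells on the array 8 lay above the median of all values, among them VIM, KRT18 and NEFL, against 1 of 5 blood and immune, 1 of 4 endothelial and 2 of 6 fibroblast markers. The summed signal of the HEK list was 67000 to 82700 on the treated WT arrays and 54400 to 57100 on the untreated ones, and in the mutant line 60900 to 66700 against 56100 to 58400. This sum was mostly VIM, whose WT mean was 14.85 untreated and 15.50 treated. In the WT line the treated means of KRT8, NEFL, NEFM, INA and PAX2 were also higher, and those of KRT18, CDH2 and LHX1 were lower. The summed signal of the fibroblast list, mostly COL1A1, was 1350 to 1470 against 733 to 993 in the WT line, and 897 to 1120 against 801 to 1020 in the mutant line. The part of these shifts in the results was not tested.

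Entry into mitosis is set off by CDK1 bound to a B-type cyclin, after CDC25 phosphatases remove its inhibitory phosphates. Kinases of the Aurora, Polo and NEK families then shape the spindle, a checkpoint holds the cell until every chromosome is attached, and the anaphase-promoting complex ends mitosis by marking cyclin B and securin for destruction. Many of these genes are switched on together late in the cycle through the transcription factors FOXM1 and MYBL2 and the complexes they join, and repressed together by the DREAM complex, so that their RNA is used as a sign of proliferation. Their promoters are known for CCAAT boxes and for the cell cycle homology region (CHR), which DREAM and its activating counterpart bind.

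These elements are shown first because they are what the promoters of the group share and the choice of genes did not use. RefSeq promoter windows (GRCh38.p14, 250 bases before to 50 after each start) were matched for 35 of the 42 genes, in 45 windows. FOXM1, AURKA, TTK, BUB3, BIRC5, TPX2 and UBE2C were not matched. The letters CCAAT, or ATTGG on the other strand, stood in 36 of the 45 windows (80%) and in 34.6% of all 35116 windows. At least 2 copies stood in 20 windows (44.4%, against 10.8% of all windows). The CHR letters TTTGAA, or TTCAAA on the other strand, stood in 28 windows (62.2%, against 15.2% of all), and TTCGAA, which is its own reverse complement, stood in 2 (4.44%, against 1.45%). Both a CCAAT and a CHR of either spelling stood in 27 windows (60%, against 6.38% of all), or in 25 of the 35 genes. Matches may overlap each other, and a match is a run of letters, not a measured binding site.

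Of the 10 genes called in the WT line below, 8 had a window and 7 held both elements somewhere in it, KIF2C being the exception. Both CCAAT and TTTGAA lay within the 250 bases before the start in 5 of them. CDC25C has 4 windows, and in the 1 that qualifies CCAAT began 85 and TTTGAA 30 bases before the start. The other 4 genes, each with a single window, are printed on the gene's own strand, with CCAAT or ATTGG and TTTGAA or TTCAAA in capitals. They are MKI67 (chr10:128126424-128126673, minus strand), TOP2A (chr17:40417897-40418146, minus strand), DLGAP5 (chr14:55191586-55191835, minus strand) and KIF11 (chr10:92592880-92593129, plus strand).
MKI67: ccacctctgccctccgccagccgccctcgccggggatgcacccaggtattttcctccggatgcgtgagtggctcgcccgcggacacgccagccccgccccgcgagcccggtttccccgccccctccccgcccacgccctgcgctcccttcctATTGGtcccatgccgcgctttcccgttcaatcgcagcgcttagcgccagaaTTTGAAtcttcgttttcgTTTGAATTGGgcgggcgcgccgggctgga
TOP2A: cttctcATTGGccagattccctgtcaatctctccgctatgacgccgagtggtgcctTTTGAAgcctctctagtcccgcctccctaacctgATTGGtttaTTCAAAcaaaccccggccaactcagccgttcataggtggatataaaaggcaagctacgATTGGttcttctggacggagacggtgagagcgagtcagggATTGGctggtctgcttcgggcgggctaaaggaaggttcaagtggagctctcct
DLGAP5: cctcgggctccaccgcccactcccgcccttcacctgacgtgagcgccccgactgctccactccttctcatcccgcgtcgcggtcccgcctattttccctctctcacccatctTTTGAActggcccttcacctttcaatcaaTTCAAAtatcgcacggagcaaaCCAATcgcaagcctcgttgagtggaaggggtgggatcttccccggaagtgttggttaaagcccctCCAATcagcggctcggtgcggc
KIF11: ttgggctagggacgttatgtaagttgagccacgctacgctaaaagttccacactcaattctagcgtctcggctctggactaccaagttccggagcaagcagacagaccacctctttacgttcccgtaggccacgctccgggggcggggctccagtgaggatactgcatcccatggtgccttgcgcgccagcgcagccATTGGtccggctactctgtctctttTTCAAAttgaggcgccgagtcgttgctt
MKI67 held CCAAT matches that began 98 and 24 bases before the start and TTTGAA matches at 47 and 29, the last of which overlaps the nearer CCAAT. TOP2A held the most, with 4 CCAAT at 244, 160, 93 and 53 bases and TTTGAA at 194 and 151. DLGAP5 had CCAAT at 87 and 22 bases and TTTGAA at 138 and 109. KIF11, the gene of the 10 that fell, held 1 CCAAT at 53 bases and 1 TTTGAA at 28 bases before the start. The elements were thus present in front of genes that changed in opposite directions.

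The first comparison asked how the mitotic genes changed when the wild-type channel line was given tetracycline. In the WT line 9 of the 42 genes rose and 1 fell. MKI67, the proliferation antigen Ki-67, rose the most, by 1.08 on the log2 scale, followed by FOXM1, the spindle genes KIF2C and NUSAP1, CDC25C and CENPF, with TOP2A, TPX2 and DLGAP5 behind them. KIF11, the kinesin that pushes spindle poles apart, fell by 0.89. The calls were 23.8% of the 42 genes, beside 18% of all 13067 genes with 1 probe set each and 21.2% of the 9370 genes whose mean signal was at least that of the dimmest mitotic gene. That cut was low, because the dimmest gene, INCENP, had a mean of 8.16. The median of the 42 means was 12.06, above 89.9% of all genes. Under the stricter filter, which kept 15346 brighter probe sets, 26.8% were called, and 45.9% of those calls were higher. The total share of the 42 genes was thus not above that of bright probe sets. By direction, 21.4% of the mitotic genes were called higher and 2.38% lower, beside 9.41% and 8.57% of all genes and 10.4% and 10.8% of the genes at least as bright. The median change was 0.17 over the 42 genes, 0.032 over all genes and 0.0044 over the genes at least as bright, and 35 of the 42 changes were above 0. All 3 treated arrays lay above all 3 untreated ones for 10 of the 42 genes and below for 0, beside 15.3% and 12.3% of all genes. In RNA of whole cultures, more cells in mitosis and more RNA per cell cannot be told apart.

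**Figure D1:**
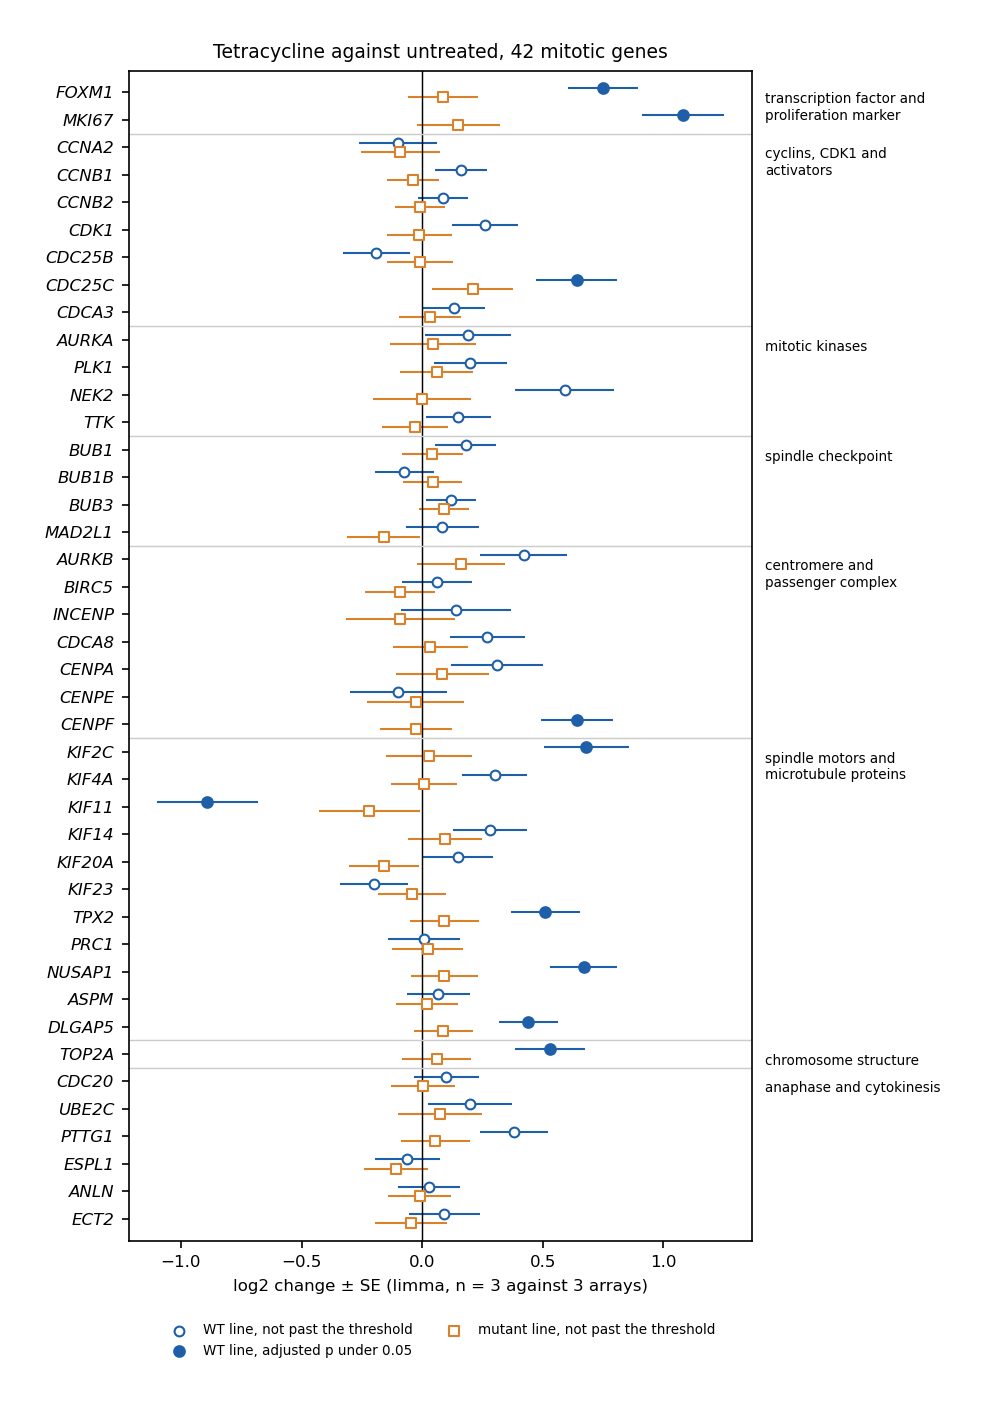
Log2 change with tetracycline against untreated (horizontal axis, points with SE of the limma fit, n = 3 against 3 arrays) of each of the 42 mitotic genes for both lines. In the WT line the changes run from -0.89 (KIF11) to 1.08 (MKI67) and 10 pass the threshold, and in the mutant line they run from -0.22 to 0.21 and 0 pass.

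FOXM1, the transcription factor that drives late cell cycle genes, and MKI67, which coats mitotic chromosomes, both rose. MKI67 read 11.79, 11.71 and 11.57 on the untreated WT arrays and 12.49, 12.83 and 13.01 with tetracycline. All 3 treated arrays lay above all 3 untreated ones, and also above the 6 mutant arrays, which read 12.13, 11.77 and 11.65 untreated and 12.09, 12.22 and 11.70 with tetracycline. Its change in the WT line was 1.08 ± 0.171 (SE, limma adjusted p = 0.00102). FOXM1 read 10.75, 10.39 and 10.88 untreated and 11.59, 11.27 and 11.43 with tetracycline in the WT line. The groups did not overlap, and the change was 0.75 ± 0.145 (limma adjusted p = 0.00333). On the mutant arrays FOXM1 read 11.14, 11.19 and 11.04 untreated and 11.13, 11.28 and 11.23 with tetracycline, so that the untreated WT arrays were the lowest of the 4 groups. The FOXM1 representative is a probe set of the kind marked as able to bind related transcripts, and so are those of BUB3, CENPA and PTTG1.

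Among the 7 cyclins, CDK1 and its activators, 1 was called in the WT line. CDC25C, a phosphatase that activates CDK1, read 10.30, 10.75 and 10.46 untreated and 10.87, 11.10 and 11.45 with tetracycline. The lowest treated array stood just above the highest untreated one, and the change was 0.64 ± 0.168 (limma adjusted p = 0.0184). Its mutant arrays read 10.48, 10.64 and 10.40 untreated and 10.67, 10.87 and 10.63 with tetracycline, with an overlap. CDK1, the kinase itself, read 14.06, 14.24 and 14.22 untreated and 14.18, 14.43 and 14.69 with tetracycline in the WT line, and these overlapped (0.26 ± 0.136, limma adjusted p = 0.21). CCNB1, the B-type cyclin that partners it, read 13.68, 13.41 and 13.51 and then 13.67, 13.59 and 13.83, which also overlapped (0.16 ± 0.108, limma adjusted p = 0.319). CDC25B, a CDC25 phosphatase that acts early in mitotic entry, read 11.70, 11.76 and 12 and then 11.87, 11.47 and 11.55 (-0.19 ± 0.138, limma adjusted p = 0.372). The values of these 3 genes did not separate the treatments. CCNA2 and CCNB2, further mitotic cyclins, changed by -0.10 and 0.086, and CDCA3, which helps destroy the inhibitory kinase WEE1, by 0.13, none past the threshold.

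None of the 4 mitotic kinases passed the threshold in the WT line. NEK2, a kinase that splits the centrosomes, came nearest. It read 11.10, 11.32 and 11.21 untreated and 11.33, 11.66 and 12.40 with tetracycline, a change of 0.59 ± 0.204 (limma adjusted p = 0.0618). The groups did not overlap, but by only a small gap, and replicate 3 stood far above the other treated arrays. AURKA, which builds the spindle poles, read 12.46, 12.88 and 12.31 and then 12.32, 12.82 and 13.09 (0.19 ± 0.177, limma adjusted p = 0.495). PLK1, the Polo kinase of mitotic entry and cytokinesis, read 10.80, 10.58 and 10.98 and then 10.85, 11.08 and 11.02 (0.20 ± 0.151, limma adjusted p = 0.4). The treated and untreated arrays of both overlapped. TTK, a checkpoint kinase at the kinetochore, changed by 0.15.

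The spindle checkpoint, which delays anaphase while chromosomes are unattached, had no called gene among its 4 members in the WT line, whose changes ran from -0.075 (BUB1B) to 0.18 (BUB1). BUB1, a kinase that recruits the other checkpoint proteins, read 12.02, 11.82 and 11.78 untreated and 11.94, 12.10 and 12.10 with tetracycline. MAD2L1, the inhibitor of CDC20 at the heart of the checkpoint, read 13.33, 13.56 and 13.30 and then 13.16, 13.61 and 13.67. BUB3, which docks BUB1 and BUB1B on the kinetochore, read 14.31, 14.25 and 14 and then 14.31, 14.31 and 14.30. The treated and untreated arrays overlapped for each of these 3 genes. BUB3 had 5 other tested probe sets, and 3 of them were called lower in the WT line, by -0.86 ± 0.278 (limma adjusted p = 0.0457), -0.88 ± 0.209 (0.011) and -1.44 ± 0.379 (0.0183). The representative of BUB3 changed by 0.12 ± 0.104 (limma adjusted p = 0.478), so the reading of this gene depends on the probe set.

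Of the 7 genes of the centromere and the chromosomal passenger complex, which corrects wrong attachments, 1 was called. CENPF, a large protein of the outer kinetochore, read 11.92, 11.46 and 11.62 untreated and 12.12, 12.25 and 12.54 with tetracycline in the WT line. The treated arrays were all higher, by 0.64 ± 0.149 (limma adjusted p = 0.0101), and also higher than every mutant array, at 11.77, 11.77 and 11.63 untreated and 11.70, 11.86 and 11.53 with tetracycline. Its other tested probe sets moved in opposite directions, by -0.81 (limma adjusted p = 0.055) and 0.27 (0.676). AURKB, the kinase of the passenger complex, changed by 0.42 ± 0.182 (limma adjusted p = 0.129) with overlapping groups. BIRC5 (survivin), CDCA8 (borealin) and INCENP, the other subunits of that complex, changed by 0.06, 0.27 and 0.14. CENPA, the histone of the centromere, changed by 0.31 and CENPE, a kinetochore motor, by -0.099. None of these 6 genes passed the threshold.

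The 11 spindle motors and microtubule proteins held 5 of the 10 calls, 4 higher and 1 lower. NUSAP1, which bundles spindle microtubules, read 13.02, 13.42 and 12.99 untreated and 13.52, 13.95 and 13.98 with tetracycline in the WT line (0.67 ± 0.139, limma adjusted p = 0.00507). KIF2C, a kinesin that takes microtubule ends apart, read 11.99, 12.06 and 11.96 and then 12.15, 12.78 and 13.12 (0.68 ± 0.177, limma adjusted p = 0.0171). For both genes every treated array was above every untreated one, with replicate 1 the lowest treated array and replicate 3 the highest. DLGAP5, a microtubule protein of the kinetochore fibres, read 12.72, 12.53 and 12.59 and then 12.78, 13.09 and 13.28 (0.44 ± 0.122, limma adjusted p = 0.0237). TPX2, the activator of AURKA on the spindle, read 11.94, 11.87 and 11.97 and then 12.11, 12.48 and 12.72 (0.51 ± 0.143, limma adjusted p = 0.0249). These pairs of groups did not overlap either, but for DLGAP5 the gap between replicate 1 of each group was narrow.

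KIF11 moved the other way. It read 12.10, 11.49 and 11.94 on the untreated WT arrays and 11.51, 10.49 and 10.87 with tetracycline. Treated replicate 1 lay just above untreated replicate 2, so the groups overlapped, and the change was -0.89 ± 0.209 (limma adjusted p = 0.0105). The remaining motors KIF4A, KIF14, KIF20A and KIF23 changed by 0.30, 0.28, 0.15 and -0.20, PRC1, which bundles the midzone of the spindle, by 0.0079, and ASPM, a spindle pole protein, by 0.066. None of these 6 passed the threshold, and KIF20A, needed for cytokinesis, read 11.60, 11.48 and 11.40 untreated and 11.44, 11.53 and 11.97 with tetracycline.

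TOP2A, the topoisomerase that untangles sister chromosomes, read 13.11, 13.23 and 13.08 untreated and 13.29, 13.68 and 14.04 with tetracycline in the WT line. The treated arrays were all higher but lay far apart, and the change was 0.53 ± 0.144 (limma adjusted p = 0.0216). None of the 6 genes of anaphase and cytokinesis was called. PTTG1 (securin), which holds separase in check, read 13.96, 14.32 and 13.86 and then 14.12, 14.53 and 14.63, with an overlap (0.38 ± 0.142, limma adjusted p = 0.0783). CDC20 and UBE2C, the activator and the conjugating enzyme of the anaphase-promoting complex, changed by 0.10 and 0.20, and ESPL1 (separase), which cuts cohesin, by -0.061. ANLN and ECT2, which build and position the cleavage furrow, changed by 0.028 and 0.092.

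**Figure D2:**
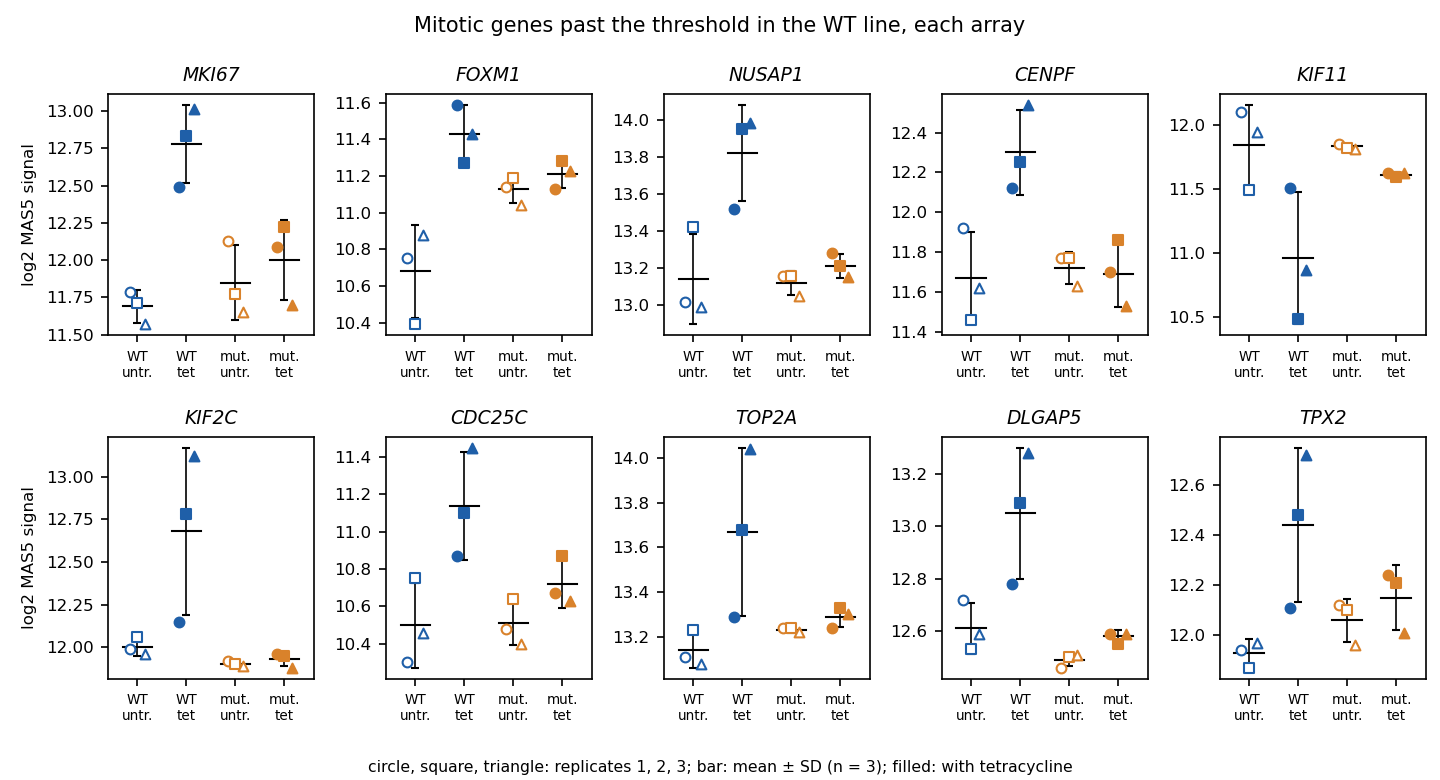
Log2 MAS5 signal (vertical axis, a separate range for each panel) of the 10 mitotic genes called in the WT line on each of the 12 arrays, with the mean and SD of each group of 3. MKI67 lies between 12.49 and 13.01 on the treated WT arrays and between 11.57 and 12.22 on the other 9, while KIF11 spans 10.49 to 11.51 on the treated WT arrays.

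The treated WT arrays did not rise evenly. Taking each gene relative to its mean on the untreated mutant arrays, the median over the 42 genes was 0.076, 0.14 and 0.39 on treated WT replicates 1, 2 and 3. On the untreated WT arrays it was 0.018, -0.091 and -0.047, and on the 6 mutant arrays it lay between -0.026 and 0.039. Over all genes the same median lay between -0.027 and 0.036 on every array. Treated WT replicate 3 was the highest of all 12 arrays for 29 of the 42 genes, and within the treated WT group replicate 1 was the lowest for 28. These counts were not made over all genes, and WT arrays also varied more than mutant arrays over all tested probe sets. For the 9 genes that rose, the medians on the treated replicates were 0.37, 0.60 and 0.82. The median SD of the 42 genes was 0.253 in this group, against 0.171 in the untreated WT group and 0.0913 and 0.0969 in the mutant groups. The count of calls depended on single arrays: it was 5 without treated replicate 2, 5 without treated replicate 3, 5 without untreated replicate 3 and 15 without treated replicate 1. With replicate 3 of all groups left out, or with only the WT arrays in the fit, MKI67 alone was called. MKI67 passed the threshold under all 16 alternatives tried, with adjusted p from 0.000118 to 0.0419.

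**Figure D3:**
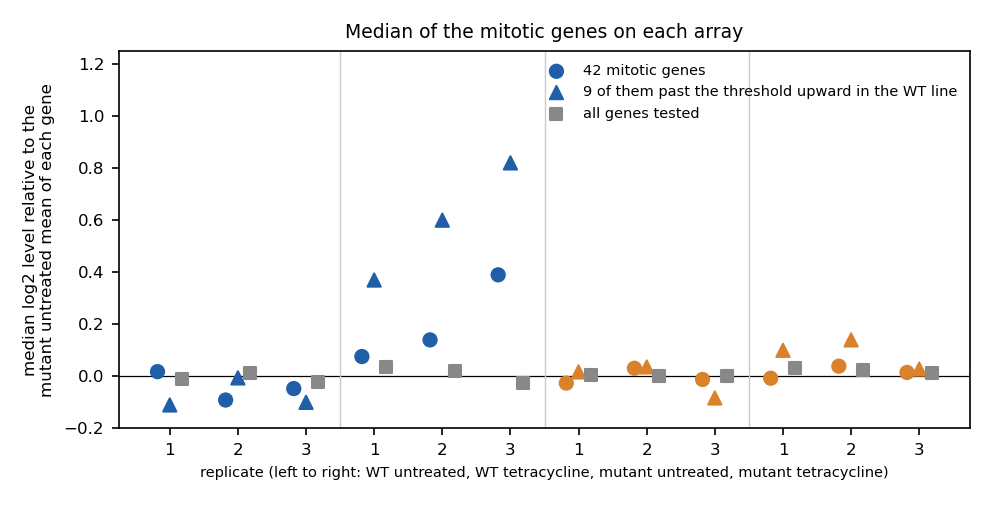
Median over the 42 mitotic genes, over the 9 that rose in the WT line and over all genes of the log2 level relative to the mean of the untreated mutant arrays (vertical axis), for each array (horizontal axis, in groups of 3 replicates). The 42 genes reach 0.39 on treated WT replicate 3 and stay between -0.026 and 0.039 on the mutant arrays.

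Of the 42 genes 24 had more than 1 probe set, and for those called in the WT line the others were read as well. MKI67 had 3 more, all with changes above 0: 1.01 ± 0.179 (limma adjusted p = 0.00212), 0.51 ± 0.205 (0.103) and 0.035 ± 0.214 (0.931). The rise of MKI67 was thus called on 2 of its 4 probe sets. KIF2C, NUSAP1 and TOP2A each had another probe set that was called in the same direction, with changes of 0.73 (limma adjusted p = 0.0424), 0.76 (0.0176) and 0.58 (0.0192). Those sets of NUSAP1 and TOP2A were called lower in the untreated WT than in the untreated mutant line, by -0.86 (limma adjusted p = 0.0118) and -0.54 (0.0337). Between the treated lines they differed by -0.21 and -0.069, without a call. The brightest sets of both genes differed by 0.019 and -0.094 between the untreated lines. A dim further probe set of TOP2A changed by 1.76 (limma adjusted p = 0.231), and the other tested set of CDC25C by 0.34 (0.228). FOXM1, KIF11, TPX2 and DLGAP5 had no other tested probe set. As an alternative, all probe sets of a gene were averaged, dim ones left out of the test included, such as a CDC25C set at 4.63. With this mean in place of the brightest set, CENPF changed by 0.031 (limma adjusted p = 0.933), CDC25C by 0.28 (0.603) and TOP2A by 0.96 (0.06), and all 3 lost their calls. BUB3 was then called lower, which made 8 calls in all.

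**Figure D4:**
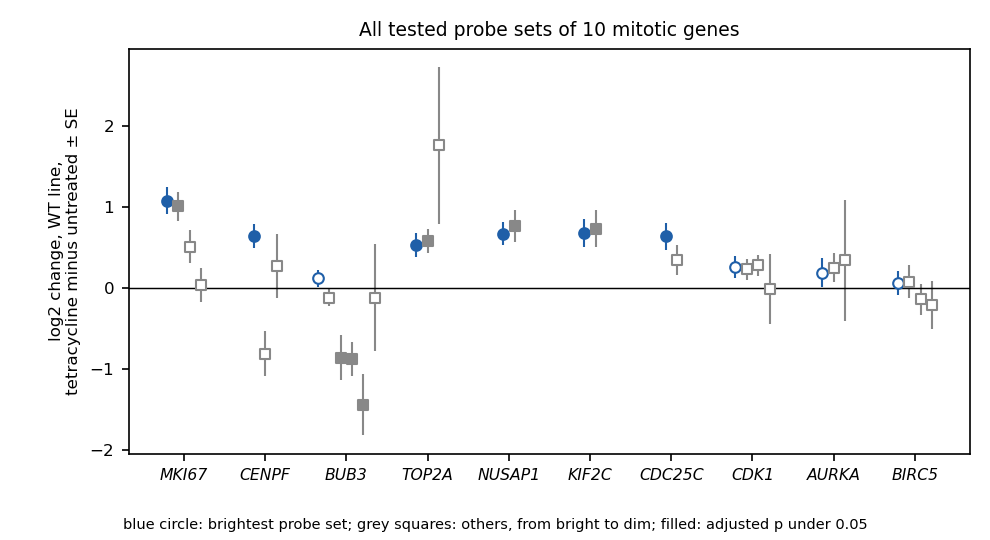
Log2 change with tetracycline in the WT line (vertical axis, points with SE, n = 3 against 3 arrays) for the tested probe sets of chosen mitotic genes. The genes, along the horizontal axis, are MKI67, CENPF, BUB3, TOP2A, NUSAP1, KIF2C, CDC25C, CDK1, AURKA and BIRC5. Probe sets of BUB3 run from -1.44 to 0.12 and those of MKI67 from 0.035 to 1.08, so different probe sets of a gene do not give a common value.

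In the mutant line, the control for the inducer, 0 of the 42 genes were called, as were 0% of all genes by limma. None of the 42 had an unadjusted p under 0.05 (smallest 0.221, adjusted p = 1), while 620 of all tested probe sets (2.1%) did. The changes ran from -0.22 to 0.21 with a median of 0.021, beside 0.016 over all genes. The 5 genes of smallest p were CDC25C (0.21 ± 0.168), KIF20A (-0.16 ± 0.145), KIF11 (-0.22 ± 0.209), MAD2L1 (-0.16 ± 0.152) and MKI67 (0.15 ± 0.171). KIF11 read 11.85, 11.82 and 11.81 untreated and 11.62, 11.59 and 11.62 with tetracycline, which do not overlap and lie close together. Its fitted SE pools the wider spread of the WT arrays. KIF20A read 11.73, 11.68 and 11.90 and then 11.49, 11.61 and 11.74, and MAD2L1 read 12.93, 13.05 and 13.21 and then 12.78, 12.76 and 13.18, both with an overlap. The 2 treatments did not overlap for DLGAP5, which was higher, and KIF11, which was lower, beside 7.7% higher and 4.83% lower of all genes. With only the mutant arrays in the fit the count of calls was also 0.

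The question of the design, whether the WT line responded differently from the control line, rests on the difference between the inductions. By limma 0 of the 42 genes were called for it, beside 0.145% of all genes, and 7 had an unadjusted p under 0.05, beside 14.5% of all tested probe sets. The nearest was MKI67, whose WT change exceeded the mutant change by 0.93 ± 0.241 (limma adjusted p = 0.113). FOXM1 followed with 0.67 ± 0.205 (0.166), CENPF with 0.66 ± 0.21 (0.175), NUSAP1 with 0.58 ± 0.197 (0.2) and KIF2C with 0.66 ± 0.251 (0.248). KIF11 differed by -0.67 ± 0.296 (limma adjusted p = 0.315). The median difference was 0.18 over the 42 genes and 0.0066 over all genes. The rise of these genes was therefore called in the WT line but was not shown to differ from the mutant line. Giving the arrays weights by their quality called 6 of the 42 (MKI67, CENPF, KIF2C, KIF11, NUSAP1 and TOP2A), beside 8.44% of all tested probe sets. Leaving out treated WT replicate 1 called 8, beside 9.14% of all, so under both settings calls rose across the array from 0.139%.

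Comparing the lines without tetracycline shows where the mitotic genes stood beforehand. PTTG1 and BIRC5 were higher in the WT line, and CDC25B, PLK1 and INCENP were lower. These 5 calls were 11.9% of the 42 genes, beside 12.7% of all genes (5.84% higher and 6.82% lower), and the median difference was 0.0053. Of the genes at least as bright as the dimmest mitotic gene, 14.7% were called (7.78% higher and 6.88% lower). CDC25B read 12.32, 12.48 and 12.28 on the untreated mutant arrays, all above the WT values given before, and the WT line was lower by 0.54 (-0.54 ± 0.138, limma adjusted p = 0.0204). INCENP, the scaffold of the passenger complex, read 8.02, 7.66 and 7.57 in the WT line against 8.48, 8.45 and 8.71 in the mutant line (-0.80 ± 0.226, limma adjusted p = 0.0313). PLK1 read 11.50, 11.29 and 11.10 in the mutant line (-0.51 ± 0.151, limma adjusted p = 0.0388). In each case the lines did not overlap. BIRC5, which in the passenger complex binds the centromere, read 12.93, 13.01 and 13.14 in the WT line against 12.49, 12.63 and 12.43 in the mutant line (0.51 ± 0.145, limma adjusted p = 0.0338). PTTG1 read 13.63, 13.62 and 13.53 in the mutant line (0.45 ± 0.142, limma adjusted p = 0.0494), below all WT arrays. FOXM1 was lower in the WT line by 0.45 without passing (-0.45 ± 0.145, limma adjusted p = 0.0541). With each gene's probe sets averaged, BIRC5 (0.31, limma adjusted p = 0.148) and PTTG1 (0.45, 0.055) lost their calls here, and FOXM1, CDK1 and AURKA gained them. PTTG1 and FOXM1 had a single probe set each, so their values were unchanged and only the fit around them differed. The beta-actin ratio given above also differed between the lines while the GAPDH ratio did not pass a test, and their part in these differences was not tested. The 5 calls fell to 0 when untreated WT replicate 2, untreated mutant replicate 1 or untreated mutant replicate 2 was left out, to 1 without untreated WT replicate 1 and 2 without untreated mutant replicate 3.

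With tetracycline the lines differed in 15 of the 42 genes, 13 higher and 2 lower in the WT line. That is 35.7%, beside 28.2% of all genes, and by direction 31% higher and 4.76% lower beside 13.3% and 14.9%. Of the genes at least as bright as the dimmest mitotic gene, 32.7% were called, 16.7% higher and 16% lower. The total of 35.7% was thus near the share of those genes. The median difference was 0.21 over the 42 genes and -0.027 over all genes. This comparison shares the treated WT arrays with the WT induction, so the values are set side by side and are not independent. CDK1, CCNB1, AURKA, BUB1, MAD2L1, BUB3, BIRC5 and PTTG1 were called here but not in the WT induction, and their treated WT values are given above. PTTG1 read 13.79, 13.65 and 13.51 on the treated mutant arrays (0.78 ± 0.142, limma adjusted p = 0.00151), and BIRC5 read 12.83, 12.97 and 13.46 in the WT line against 12.31, 12.55 and 12.42 in the mutant line (0.66 ± 0.145, limma adjusted p = 0.00475). Both were already higher untreated.

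CCNB1 read 13.16, 13.38 and 13.35 untreated and 13.19, 13.27 and 13.31 with tetracycline in the mutant line, so all treated WT arrays were higher (0.44 ± 0.108, limma adjusted p = 0.00823). The other probe set of CCNB1 differed by -0.20 (limma adjusted p = 0.459). CDK1 read 13.68, 14.07 and 14.13 and then 13.92, 14.02 and 13.91 (0.48 ± 0.136, limma adjusted p = 0.0174), and each of its 3 other probe sets was called in the same direction. Those 3 were already called higher in the untreated WT line, by 0.54 (limma adjusted p = 0.0151), 0.47 (0.0278) and 1.61 (0.0243). AURKA read 12.10, 12.12 and 12.10 and then 12.24, 12.05 and 12.18 (0.59 ± 0.177, limma adjusted p = 0.0231). The treated lines did not overlap for these 3 genes. BUB1 read 11.47, 11.59 and 11.71 and then 11.48, 11.60 and 11.81 in the mutant line (0.42 ± 0.127, limma adjusted p = 0.0248). MAD2L1 overlapped between the treated lines by its array at 13.18 (0.57 ± 0.152, limma adjusted p = 0.0128). BUB3 read 13.90, 13.99 and 13.83 and then 13.96, 14.16 and 13.88 (0.30 ± 0.104, limma adjusted p = 0.0417), and of its 5 other tested probe sets 1 was called in the same and 1 in the opposite direction. Untreated, CCNB1, AURKA, BUB1, MAD2L1 and BUB3 already read higher in the WT line, by 0.24, 0.45, 0.29, 0.33 and 0.28. The untreated lines did not overlap for these genes, but none was called on its brightest probe set. The checkpoint had 3 of its 4 genes called higher in the treated WT line. With each gene's probe sets averaged, though, BUB1 differed by -0.031 and BUB3 by -0.056, and MAD2L1 by 0.37 (limma adjusted p = 0.0717), all without a call. The mean for BUB1 took in dim probe sets left out of the test. The other tested sets of BUB1 differed by 0.06 and 0.97, without a call. By the same averaging CCNB1 (0.12, limma adjusted p = 0.535), NUSAP1 (0.20, 0.394), CENPF (0.39, 0.16) and MKI67 (0.40, 0.101) also lost their calls between the treated lines.

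Of the genes called in the WT induction, MKI67 (0.77), KIF2C (0.75), CENPF (0.61), NUSAP1 (0.60) and DLGAP5 (0.47) were also called higher between the treated lines, with limma adjusted p from 0.00466 to 0.0111, and KIF11 was called lower (-0.65 ± 0.209, limma adjusted p = 0.0317). NUSAP1 read 13.16, 13.16 and 13.05 untreated and 13.28, 13.21 and 13.15 with tetracycline on the mutant arrays, KIF2C between 11.88 and 11.96 and DLGAP5 between 12.46 and 12.59 on all 6. These 3 genes showed little spread in the mutant line. FOXM1 (0.22, adjusted p = 0.285), CDC25C (0.42, 0.0757), TOP2A (0.38, 0.0648) and TPX2 (0.28, 0.154) did not pass the limma threshold here. TOP2A lay between 13.22 and 13.33 and TPX2 between 11.96 and 12.24 on the mutant arrays. CDC25B, at 12.18, 12.41 and 12.46 on the treated mutant arrays, was lower in the WT line with tetracycline (-0.72 ± 0.138, limma adjusted p = 0.0021) as it was without. PLK1, at 11.44, 11.46 and 11.17, and INCENP, at 8.07, 8.66 and 8.65, were no longer past the threshold (-0.37, adjusted p = 0.0793, and -0.57, 0.0723, by limma). INCENP read 7.66, 7.91 and 8.08 on the treated WT arrays. With replicate 3 of all groups left out, 2 calls between the treated lines remained (MAD2L1 and PTTG1), and without treated WT replicate 3 there were 9.

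**Figure D5:**
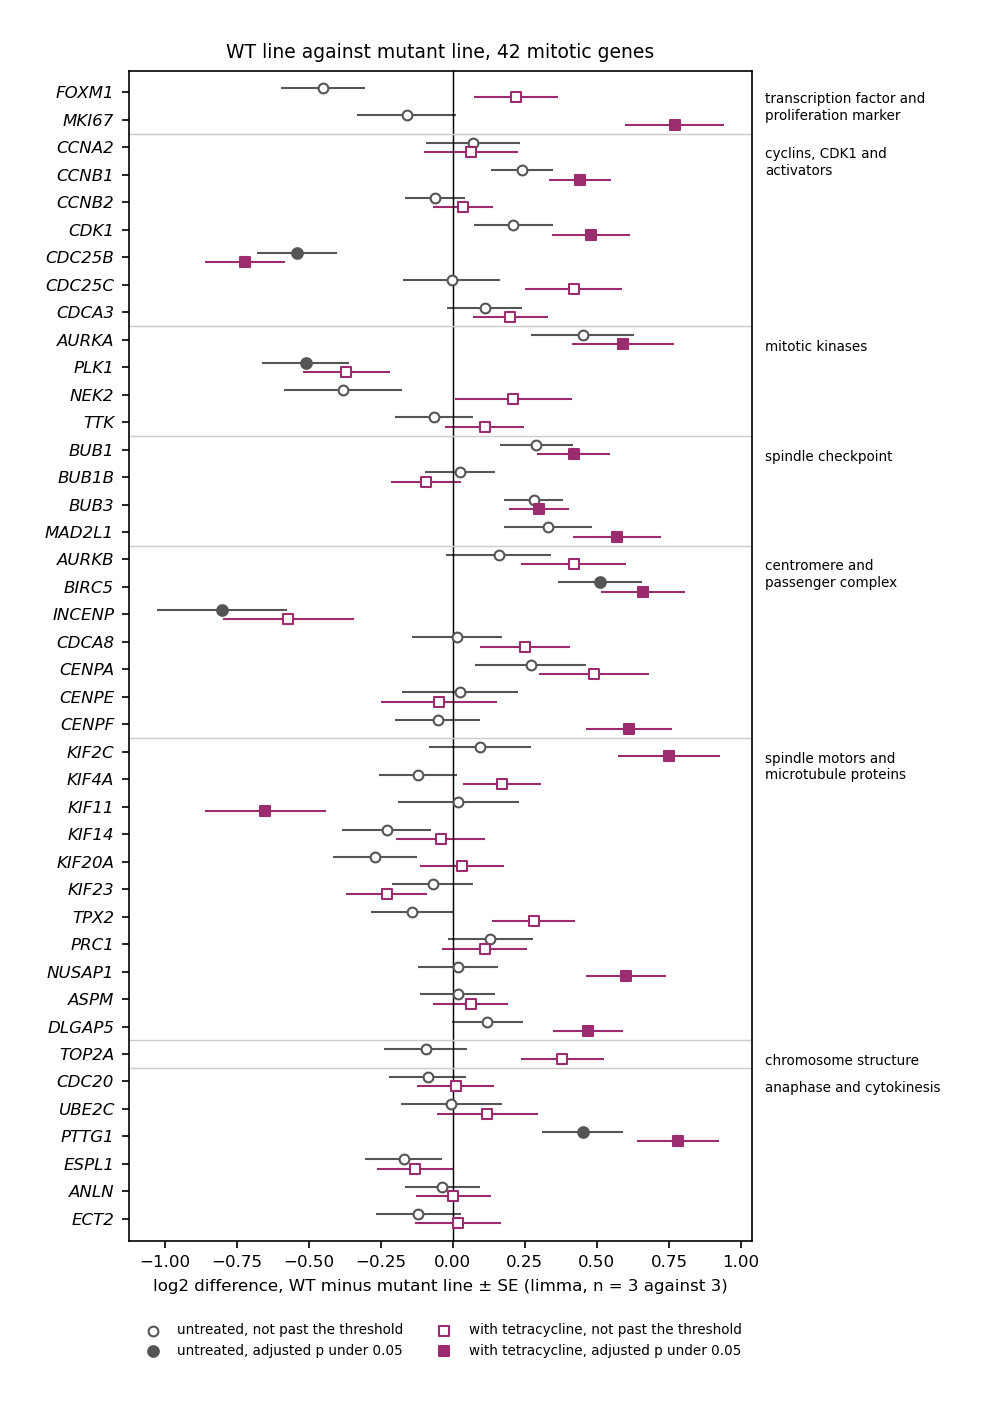
Log2 difference between the WT and the mutant line (horizontal axis, WT minus mutant, points with SE of the limma fit, n = 3 against 3 arrays) of the 42 mitotic genes, untreated and with tetracycline. Untreated the differences run from -0.80 to 0.51 with 5 past the threshold, and with tetracycline from -0.72 to 0.78 with 15 past it.

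Lists of other cell cycle genes, without the 42, place these changes beside their regulators and partners. Over all genes 9.41% were called higher and 8.57% lower in the WT line. No list was tested against these shares. In the WT line 3 of 17 tested genes of the first gap and DNA synthesis phases rose and 2 fell. CDKN1A (p21), an inhibitor of cyclin-dependent kinases and a classical target of p53, rose from 10.99 ± 0.33 to 12.47 ± 0.273 (SD, n = 3; change 1.48 ± 0.181, limma adjusted p = 0.000266), and CCNE2, a cyclin of entry into DNA synthesis, rose by 0.49 (0.0416). CDK6 and its partner cyclin CCND1 fell by 0.81 and 0.90 on the log2 scale (limma adjusted p = 0.00106 and 0.00895). CDKN1A was the only one of the listed genes called for the difference between the inductions (1.45 ± 0.256, limma adjusted p = 0.0485). It changed by 0.032 in the mutant line. An inhibitor of proliferation and MKI67 thus both rose on the same 3 arrays.

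Of 22 genes of the E2F, RB and DREAM regulators 5 rose and 1 fell, among them E2F8 (0.62, limma adjusted p = 0.00866), E2F2 (0.72, 0.0144), the DREAM subunit LIN52 (0.68, 0.00985) and the E2F partner TFDP2 (0.56, 0.0244). Of 29 further kinetochore and checkpoint genes 3 rose and 3 fell, which is near the shares over all genes (9.41% and 8.57%). CDCA5 (sororin), which protects cohesion, and HJURP, which loads CENPA, rose by 0.92 and 0.64 (limma adjusted p = 0.0074 and 0.0212). ZW10 and ZWINT, which bring the checkpoint motor to the kinetochore, changed by -0.78 and -0.72 (0.00387 and 0.00766). The list had a median of -0.063 and no common direction.

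The list of the anaphase-promoting complex, which CDC20 and UBE2C serve, and of related degradation genes had 0 of 16 genes higher and 3 lower. Over all genes the shares were 9.41% and 8.57%. The 3 were ANAPC4 by -0.85 ± 0.141 (limma adjusted p = 0.00138), ANAPC5 by -0.94 ± 0.18 (0.00328) and ANAPC7 by -0.61 ± 0.179 (0.0301). CDC16 changed by -0.94 ± 0.341 without passing (0.0735). Of 16 condensin and cohesin genes only WAPL, which releases cohesin, was called (0.85, limma adjusted p = 0.00233), with NCAPH at -0.43 (0.0966). Of 28 further spindle, centrosome and cytokinesis genes 2 rose, MELK by 0.76 (limma adjusted p = 0.00178) and CEP55 by 0.42 (0.0236), and CEP152, a centriole duplication protein, fell by 0.90 on the log2 scale (0.0344). In the mutant line 0 genes of any of these lists were called by limma.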

How the data were processed

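Total RNA of 12 samples, 4 groups of 3 arrays, was taken by Trizol and biotin-labelled, per the labels' protocols. The deposited values are MAS5 signals, a linear intensity per probe set, per the submitters' processing notes. No version or setting of MAS5 is given in the sources used here. The authors' values had the same mean on every array after trimming 2% at each end, 500.1. Signals under 1 (0.337% of values) were set to 1 and log2 was taken. Of 54675 probe sets, 62 AFFX controls were left out, and the 29553 with a group mean over 6.387, the median of all log2 values, were tested. Gene symbols came from the platform annotation, in which 41091 probe sets had 1 symbol, 1801 several and 11721 none. One limma 3.58.1 model (R 4.3.3) with a mean per group and a variance trend (eBayes) gave the 5 contrasts, with 2-sided p-values adjusted within each over all tested probe sets. The fit was tested on simulated data. The simulation gave all 12 arrays the same spread per probe set, so it could not check the effect of the unequal spread of the lines. The array number limits the precision.

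The 42 genes, the lists of other cell cycle genes and the alternatives were chosen with earlier results of these data known. Every one of the 42 is named. Those called in any contrast, or among the 5 smallest p of an induction or the difference, have their value on each array. The exceptions are KIF2C, DLGAP5, TOP2A and TPX2, which have only a range over the mutant arrays. Of each other list, up to 4 genes of smallest p in the WT line are named. CDKN2C, ANAPC1 and CIT had no probe set with their symbol alone. Whether replicate numbers mark pairs within a line was not settled. Deviations of same-numbered untreated and treated arrays correlated at 0.253, 0.24 and 0.0418 in the WT line. In the mutant line these correlations were 0.137, 0.0258 and 0.21. Within lines the same-numbered array was the best match, except for untreated WT replicate 3. Across lines the correlations ran from -0.00534 to 0.0806. The main fit used no pairs. No 2 arrays were identical. The alternatives were no filter, a stricter filter, an offset of 16, quantile normalization, no variance trend, fewer groups in the fit, array weights, a replicate block, the mean of a gene's probe sets and leaving arrays out.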

Additional observations from a re-analysis of the deposited data

How the results depend on the processing

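In the WT line the count of the 42 mitotic genes past the threshold was 10 as reported, 6 without a variance trend, 1 with only the groups compared in the fit and 1 with replicate 3 of all groups left out, and it ran from 5 to 15 when single arrays were left out; the other 7 of 10 settings stayed within 1.5 times. Over all tested probe sets, calls fell from 16.9% to 4.14% with only the WT arrays and to 1.83% without replicate 3, and rose to 27.3% without treated WT replicate 1. The count for the difference was 0, but 6 with array weights and from 0 to 8 when single arrays were left out; fitting only the groups compared is no alternative there. Between the untreated lines the count was 5, and 1 without a filter, 1 without a variance trend, 3 with quantile normalization and 1 without replicate 3, with 0 to 5 when single arrays were left out; quantile normalization also moved the share of all calls that were higher from 32.5% to 43.2%. Between the treated lines it was 15, and 2 without replicate 3, with 9 to 20 when single arrays were left out. The count in the mutant line was 0 under each setting. The replicate block gave 11, 6 and 16 genes for the WT line, the untreated lines and the treated lines, and 0 for the others. With the mean of a gene's probe sets, dim untested ones included, CDC25C changed by -0.12 in the mutant line, BUB1 by -0.031 and BUB3 by -0.056 between the treated lines. The stricter filter left INCENP untested. The cause of these shifts was not tested. Where arrays were left out, the fit also had fewer arrays.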
